A study of Mus musculus with 27 samples.

Results

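The dystrophin-glycoprotein complex was described here through 7 of its genes, the rows of the gene table with the names Dmd, Utrn, Dag1, Sgca, Sgcb, Sgcd and Dtna, out of 54532 genes in all. Bulk RNA of tibialis anterior muscle was sequenced in 27 samples from 8-week-old male C57BL/6 mice. In the injured mice 40% of the muscle had been cut out, a volumetric muscle loss (VML). The groups were muscle with no injury (n = 5) and muscle taken 3 days (n = 5), 7 days (n = 6), 14 days (n = 6) and 21 days (n = 5) after VML. The labels name no transgene or treatment in any group, and the sources differ on whether 1 or both legs were injured.

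The complex is a chain of proteins that ties the cytoskeleton of the muscle fiber to the basement membrane. Dystrophin (Dmd) binds actin inside the fiber and beta-dystroglycan at the membrane, while alpha-dystroglycan, cut from the same Dag1 product, binds laminin outside through its sugar chains. The sarcoglycans (Sgca, Sgcb, Sgcd) form a membrane subcomplex that steadies this link, dystrobrevin (Dtna) joins dystrophin to the syntrophins, and utrophin (Utrn) is the dystrophin relative found at the neuromuscular junction and in regenerating fibers. Loss of dystrophin or of a sarcoglycan causes muscular dystrophy.

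All 7 members were measured in every sample and passed the filter on low values, which asked for 0.5 or more in 5 or more samples on the FPKM scale (fragments divided by gene length and by sequencing depth). Sgcd reached this level in 25 samples and the other members in all 27. Samples held 14376395 to 24436763 reads, and the members were counted with 58 to 271 reads per sample for Sgcd, the fewest, and 2315 to 4670 for Sgca, the most. In 9 of the 27 samples the expression profile lay nearest to the mean of another group, which included 3 of day 7. Among these were day 3 replicate 5 and day 7 replicate 5, each nearest to the other's group, so values were also computed without both. The 9 genes listed as markers of mature fast fibers were above 0 in every sample, as the label of the tissue requires. Their summed level had a median of 81061 FPKM with no injury and of 38309, 43058, 54992 and 66998 at days 3, 7, 14 and 21.

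The start regions of the members that the results turn on are shown so that the genes can be read beside their values. They hold 250 bases before and 50 after a start listed by RefSeq on GRCm38.p6, with E-boxes (CANNTG, the motif bound by myogenic factors such as MyoD) and the CArG box (the motif bound by serum response factor) in capitals.
Sgca, chr11:94976278-94976577, minus strand: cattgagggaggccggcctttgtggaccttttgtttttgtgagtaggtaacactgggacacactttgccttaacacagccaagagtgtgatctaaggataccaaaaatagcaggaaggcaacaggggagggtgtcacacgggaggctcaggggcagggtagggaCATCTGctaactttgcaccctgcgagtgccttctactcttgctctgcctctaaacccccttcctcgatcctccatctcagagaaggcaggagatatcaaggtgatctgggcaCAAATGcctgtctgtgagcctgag
Sgcb, chr5:73647688-73647987, minus strand: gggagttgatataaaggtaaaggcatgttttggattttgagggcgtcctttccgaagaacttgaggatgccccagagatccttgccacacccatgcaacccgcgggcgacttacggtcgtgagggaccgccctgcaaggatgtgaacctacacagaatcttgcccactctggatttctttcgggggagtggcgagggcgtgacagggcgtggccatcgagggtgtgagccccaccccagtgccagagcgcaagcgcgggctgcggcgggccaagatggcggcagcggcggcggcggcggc
Dag1, chr9:108263909-108264208, minus strand: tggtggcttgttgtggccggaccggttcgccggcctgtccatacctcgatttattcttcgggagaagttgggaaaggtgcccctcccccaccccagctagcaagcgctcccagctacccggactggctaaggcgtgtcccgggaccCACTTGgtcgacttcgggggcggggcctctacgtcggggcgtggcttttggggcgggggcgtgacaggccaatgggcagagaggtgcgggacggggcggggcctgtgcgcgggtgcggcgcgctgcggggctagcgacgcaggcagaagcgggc
Dmd, chrX:82948620-82948919, plus strand: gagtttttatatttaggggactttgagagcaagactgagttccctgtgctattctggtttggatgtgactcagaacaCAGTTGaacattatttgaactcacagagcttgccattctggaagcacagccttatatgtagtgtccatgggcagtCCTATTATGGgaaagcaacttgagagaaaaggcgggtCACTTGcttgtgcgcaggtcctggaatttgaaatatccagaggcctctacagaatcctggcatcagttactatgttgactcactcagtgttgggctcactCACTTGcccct
The Sgca window held 2 E-boxes, the Dag1 window 1 and the Dmd window 3, and the Sgcb window held 0. Of 32851 promoter windows of this length, 72.3% held at least 1 E-box, so the motif does not set these genes apart. The Dmd window also held 1 CArG box, a motif found in 1.63% of the windows. The MEF2 motif by name and the MCAT motif (CATTCCT), searched on both strands, were found in 0.557% and 5.36% of all windows and in 0 of these 4. Dmd and Dag1 each have another RefSeq start, whose windows are not printed. That of Dmd (chrX:85048045-85048344) held 0 E-boxes and 0 CArG boxes, and that of Dag1 held 1 E-box.

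In muscle with no injury the members differed widely in level. Sgca had the highest mean FPKM, 143 ± 15.5 (SD, n = 5), followed by Sgcb at 27.6 ± 2.69, Dag1 at 20.9 ± 3.57 and Dtna at 4.91 ± 0.485. Lower still were Dmd at 1.96 ± 0.441 and Utrn at 1.24 ± 0.182, and Sgcd was lowest at 0.985 ± 0.288. Neighbors in this order did not overlap between samples down to Dmd, whereas the ranges of Dmd and Utrn overlapped, as did those of Utrn and Sgcd. FPKM divides by the length of all annotated exons, which is 23801 bases for Dmd against 14910 in its longest transcript, and dividing by the longest transcript instead put Sgcd above Utrn and left the rest of the order as it was.

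**Figure D1:**
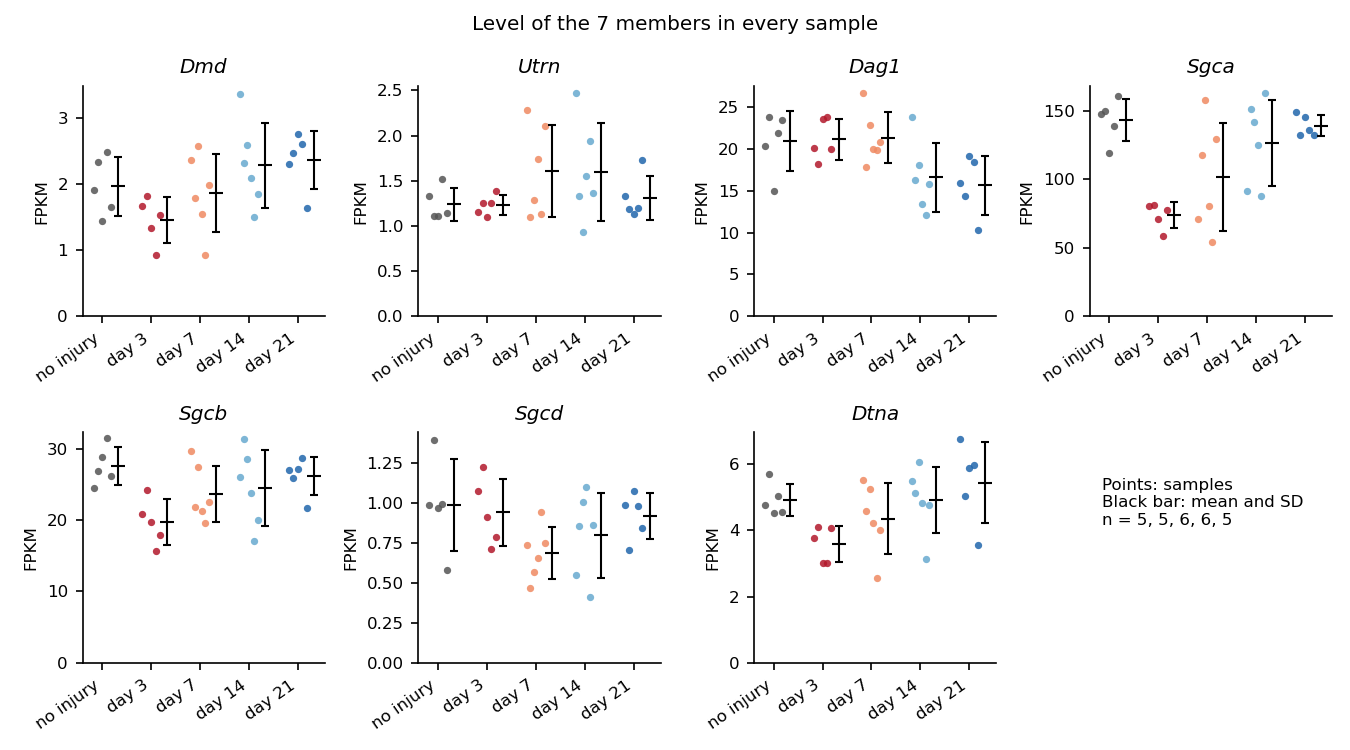
FPKM of the 7 members in each of the 27 samples (vertical axes from 0), by group on the horizontal axis. Points are samples and black bars the mean with SD; all 5 day 3 samples lie below every sample with no injury for Sgca, Sgcb and Dtna.

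The question put to each time point was which members differed from muscle with no injury. At day 3 the alpha and beta subunits of the sarcoglycan complex were lower, Sgca to 0.517 and Sgcb to 0.714 of their mean FPKM with no injury. At day 7 only Sgca passed the test, and at days 14 and 21 no member did. In limma with Benjamini-Hochberg adjustment over 14630 genes, 2 of 7 members were called at day 3 (adjusted p under 0.05), both lower, where 43.2% of all genes were called in either direction and 19.8% were called lower. On day 7 the count was 1 of 7, lower, against 29.4% of all genes in either direction and 14.4% lower. The late groups each had 0 of 7, against 20.3% on day 14 and 3.43% on day 21. In either direction the share of members called was below that of all genes each time. For lower calls alone it was above that of all genes at day 3 and close to it at day 7. With an unadjusted p under 0.05 there were 3, 1, 0 and 1 members. The members had median log2 fold changes of -0.27, -0.17, -0.14 and -0.04 (days 3, 7, 14 and 21), beside 0.01, 0.03, 0.02 and 0.01 for all genes tested. The day 3 median of the members was -0.41 with 0.1 added to FPKM in place of 1, and -0.44 with voom on the recovered reads. Both day 3 calls were lost when samples were scaled by their own totals of reads or to a common FPKM sum. Median-ratio scaling, which evens out the median gene ratio between samples, kept both. Its factor was 1.011 in every sample, so it left the deposited values almost as they were. All 4 comparisons share the same 5 samples with no injury.

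**Figure D2:**
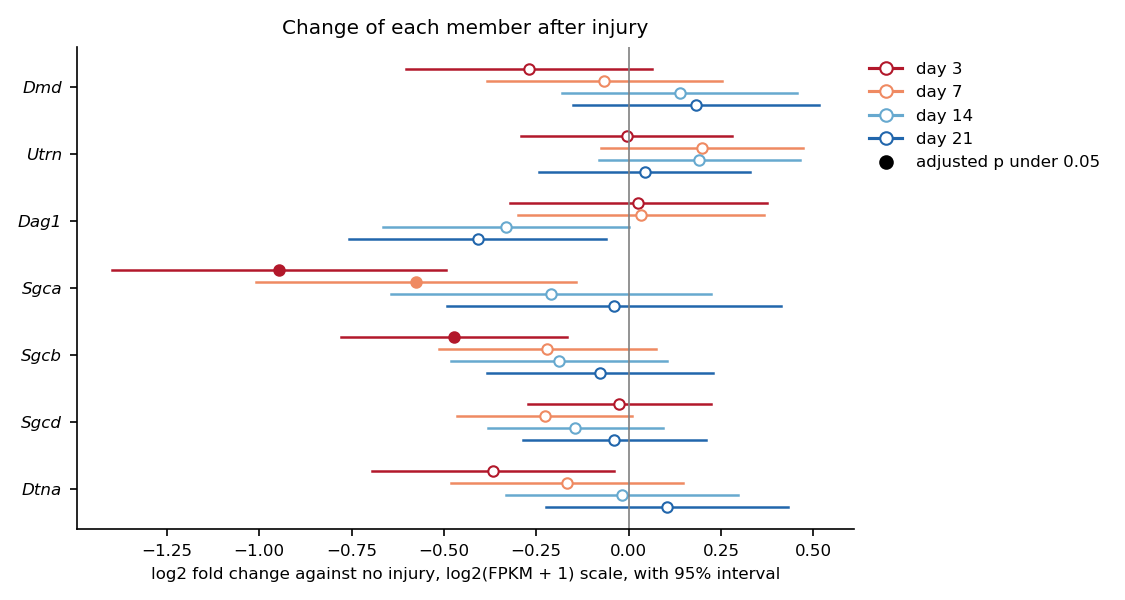
Log2 fold change of each member against no injury on the log2(FPKM + 1) scale (horizontal axis) with its 95% interval, by time point. Filled points have an adjusted p under 0.05: Sgca at days 3 and 7 and Sgcb at day 3.

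Sgca (ENSMUSG00000001508, chromosome 11 from 94962791 to 94976327, minus strand, GRCm38) encodes alpha-sarcoglycan, the subunit made almost only in striated muscle. In FPKM the uninjured samples had 148, 150.03, 119, 139 and 161, and those of day 3 had 80.8, 81.6, 70.8, 59.0 and 78.0. Day 7 values ran from 54.2 through a median of 99.0 to 158, and day 14 values from 87.7 through 133 to 163. At day 21 they were 149, 132, 145, 136 and 132. The day 3 samples lay together below every sample with no injury, the day 7 samples spread from below the day 3 range to the upper end of the uninjured range, and the day 21 samples lay within the uninjured range. The change at day 3 was -0.95 ± 0.22 (log2, SE) with an adjusted p of 0.00117 in limma. At day 7 it was -0.58 ± 0.21 (limma adjusted p = 0.0411), with 4 of 6 samples below all controls. The day 7 call was lost when any 1 of 7 samples was left out, day 7 replicates 1, 4 and 5 or no injury replicates 1, 2, 4 and 5, with limma adjusted p from 0.0629 to 0.124 in those fits. It was also lost without both day 3 replicate 5 and day 7 replicate 5 (-0.42, limma adjusted p = 0.128). At day 21 the difference was -0.04, with a 95% interval from -0.49 to 0.41.

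Markers of mature fibers moved with Sgca. Across the 27 samples log2(FPKM + 1) of Sgca had a Pearson r of 0.92 with the summed mature fiber markers and of -0.86 with the summed macrophage markers, and 0.88 and -0.67 after each group's mean was removed. At day 7 the sample with the lowest Sgca (54.2 FPKM, replicate 5) also had the lowest fiber sum, 24269 FPKM, and a macrophage sum of 2005 FPKM, the highest of its group. The sample with the highest Sgca (158 FPKM, replicate 3) had the highest fiber sum, 86383 FPKM, and lay nearest to the mean of muscle with no injury. Day 7 replicates 3 and 6 (158 and 130 FPKM of Sgca) had summed regenerating muscle markers of 3.80 and 5.01 FPKM. The other day 7 samples had 121 to 231 FPKM, and samples with no injury 1.34 to 4.58. No fit left out both replicates. The whole mature fiber list had 7 of 9 genes lower at day 3, and the macrophage list had 6 of 6 higher, with summed macrophage levels of 16.2 to 24.7 FPKM with no injury and 312 to 2142 at day 3. In bulk muscle, fewer fibers in the sample and less Sgca RNA per fiber cannot be told apart, and the part of cell makeup in the change was not tested.

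Sgcb (ENSMUSG00000029156, chromosome 5 from 73632749 to 73647790, minus strand) encodes beta-sarcoglycan, which anchors the subcomplex and is also made outside striated muscle. Samples with no injury had FPKM values of 24.4, 26.9, 28.8, 31.5 and 26.2, and day 3 samples had 20.9, 24.2, 19.8, 15.7 and 17.9. All 5 day 3 samples lay below every uninjured sample, although the highest of them came within 1 FPKM of the lowest control. On day 3 the log2 fold change was -0.47 ± 0.15 (SE), with a limma adjusted p of 0.0119. With own totals it turned to 0.16 (limma adjusted p = 0.514) and with a common sum to 0.32 (limma adjusted p = 0.325). By day 7 the values ran from 19.5 to 29.7 and the fold change was -0.22, with a limma adjusted p of 0.251. At day 21 it was -0.08 (95% interval -0.38 to 0.23). In samples without injury Sgcb stood at 0.163 to 0.242 of the Sgca level and at day 3 at 0.230 to 0.296, with 4 of 5 samples above all controls. The log2 ratio of Sgcb to Sgca was higher by 0.46 at day 3 (exact permutation test, two-sided, p = 0.0159), which did not pass adjustment over the 12 ratio tests (p = 0.0635).

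Sgcd (ENSMUSG00000020354, chromosome 11 from 46896253 to 47988969, minus strand) encodes delta-sarcoglycan, which forms a tight core with beta-sarcoglycan. Uninjured muscle had FPKM values of 0.991, 1.39, 0.970, 0.994 and 0.579, and day 3 muscle had 1.07, 1.23, 0.913, 0.712 and 0.785. These ranges overlapped almost fully, and the log2 fold change was -0.03, with a 95% interval from -0.27 to 0.22. At day 7 the values ran from 0.469 to 0.942 FPKM, with 2 of 6 samples below all controls, and the fold change of -0.23 had a limma adjusted p of 0.136. Sgcd had a median of 122 reads per sample, and since its FPKM lies near the added 1, log2(FPKM + 1) understates its changes. The same holds for Dmd and Utrn. For Dmd at day 3 the ratio of mean FPKM to no injury was 0.742, beside a log2 fold change of -0.27. For Utrn at day 7 it was 1.30, beside 0.20.

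Dtna (ENSMUSG00000024302, chromosome 18 from 23415135 to 23659715, plus strand) encodes alpha-dystrobrevin, the cytoplasmic partner of dystrophin and the syntrophins. FPKM values with no injury were 4.75, 5.69, 4.51, 5.02 and 4.56, and on day 3 they were 3.77, 4.11, 3.01, 3.02 and 4.06. Every day 3 sample lay below every uninjured sample. The log2 fold change of -0.37 ± 0.16 (SE) missed the threshold with a limma adjusted p of 0.0654. It passed with the replicate number as a block (limma adjusted p = 0.0348), with the 2 groups fitted alone (limma adjusted p = 0.0142) and without both day 3 replicate 5 and day 7 replicate 5 (limma adjusted p = 0.0331). With own totals of reads the fold change turned to 0.17 (limma adjusted p = 0.489) and with a common sum to 0.30 (limma adjusted p = 0.325). At day 21 the values were 6.73, 5.04, 5.88, 5.96 and 3.55, with 3 above all controls and 1 below, and a fold change of 0.10 (95% interval -0.22 to 0.43). The exons of Dtna overlap those of the antisense gene Gm47898 by 90 bases, and reads of the pair cannot be told apart in a library without strand. Gm47898 had a median of 0.504 FPKM.

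Dmd (ENSMUSG00000045103, chromosome X from 82948870 to 85206141, plus strand) spans 2257 kb and has 79 exons in its longest transcript. The uninjured FPKM values were 1.91, 2.33, 1.44, 2.48 and 1.64, and those of day 3 were 1.67, 1.82, 1.33, 0.926 and 1.53. Day 21 samples had 2.30, 2.47, 2.76, 2.61 and 1.63. The day 3 samples covered the lower part of the uninjured range, with 2 of 5 below it, and 2 of 5 day 21 samples lay above it. Against no injury Dmd changed by -0.27 on day 3 (log2, 95% interval -0.60 to 0.06, limma adjusted p = 0.186) and by 0.18 on day 21 (interval -0.15 to 0.51), with -0.07 and 0.14 in between. No time point passed the test, although the day 3 difference did when samples were weighted by quality (-0.28, limma adjusted p = 0.0330).

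Utrn (ENSMUSG00000019820, chromosome 10 from 12382188 to 12869365, minus strand) is the relative of dystrophin that can take its place in the complex. The 5 uninjured samples had 1.33, 1.11, 1.11, 1.52 and 1.14 FPKM, and the day 3 samples had 1.16, 1.25, 1.10, 1.25 and 1.39. Day 7 samples ran from 1.10 through a median of 1.52 to 2.28, and day 14 samples from 0.929 through 1.46 to 2.47. In both later groups 3 of 6 samples lay above all controls and 1 lay below. On the log2 scale the difference was -0.01 at day 3 (interval -0.29 to 0.28) and 0.20 at day 7 (interval -0.07 to 0.47, limma adjusted p = 0.265). The ratio of Utrn to Dmd, which does not depend on how a sample was scaled, had a geometric mean of 0.641 with no injury and of 0.865, 0.872, 0.690 and 0.560 at days 3, 7, 14 and 21. None of the 4 time points differed from no injury in this ratio (exact permutation tests, two-sided, p from 0.0794 to 0.740, adjusted p from 0.238 to 0.857).

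Dag1 (ENSMUSG00000039952, chromosome 9 from 108204634 to 108263958, minus strand) encodes both dystroglycan subunits. Without injury its FPKM values were 20.3, 23.8, 15.002, 21.9 and 23.5, and on day 3 they were 20.1, 18.2, 23.6, 23.8 and 20.01. Day 14 values ran from 12.05 through a median of 16.03 to 23.8, and day 21 values were 15.9, 14.4, 19.2, 18.4 and 10.3. The day 3 range lay inside the uninjured range but for 1 sample, while the day 21 samples lay in its lower part or below it, 2 of 5 below. Dag1 had a log2 fold change of 0.03 on day 3 (95% interval -0.32 to 0.37). On day 14 it was -0.33 (limma adjusted p = 0.147) and on day 21 it was -0.41 ± 0.17 (SE, limma adjusted p = 0.175, unadjusted p = 0.0232), and neither passed. With samples weighted by quality both passed (-0.37 and -0.36, limma adjusted p = 0.0388 and 0.0462).

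Measured against Dmd within each sample, Dag1 was lower in these samples at the late time points. The ratio of Dag1 to Dmd was 10.7, 10.2, 10.4, 8.82 and 14.3 with no injury, and it was 6.91, 5.82, 6.95, 7.07 and 6.29 at day 21. At day 14 it ran from 6.43 through a median of 7.07 to 8.57. Every sample of both late groups lay below every sample with no injury, and the spread among them was small. The mean log2 ratio was lower than with no injury by 0.55 at day 14 (difference -0.55) and by 0.70 at day 21 (difference -0.70). The exact permutation tests, two-sided, gave p = 0.00433 at day 14 and p = 0.00794 at day 21, the smallest these group sizes allow, and an adjusted p over 12 tests of 0.0476 for each. On day 3 the ratio was 12.04, 10.02, 17.8, 25.7 and 13.1, a log2 difference of 0.47 that did not pass (exact p = 0.119, adjusted p = 0.238). The difference at day 21 lay between -0.60 and -0.77 when any 1 sample was left out, but 4 samples against 5 cannot give an adjusted p under 0.0635 here. At day 14 it lay between -0.62 and -0.45. There 5 of the left-out fits did not pass (exact permutation test, adjusted p up to 0.0571). The ratio tests were chosen with earlier results of these data known, and the adjustment over 12 tests does not cover that choice. The mean of Dag1 was lower and that of Dmd higher at day 21 than with no injury, and neither passed its own test.

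**Figure D3:**
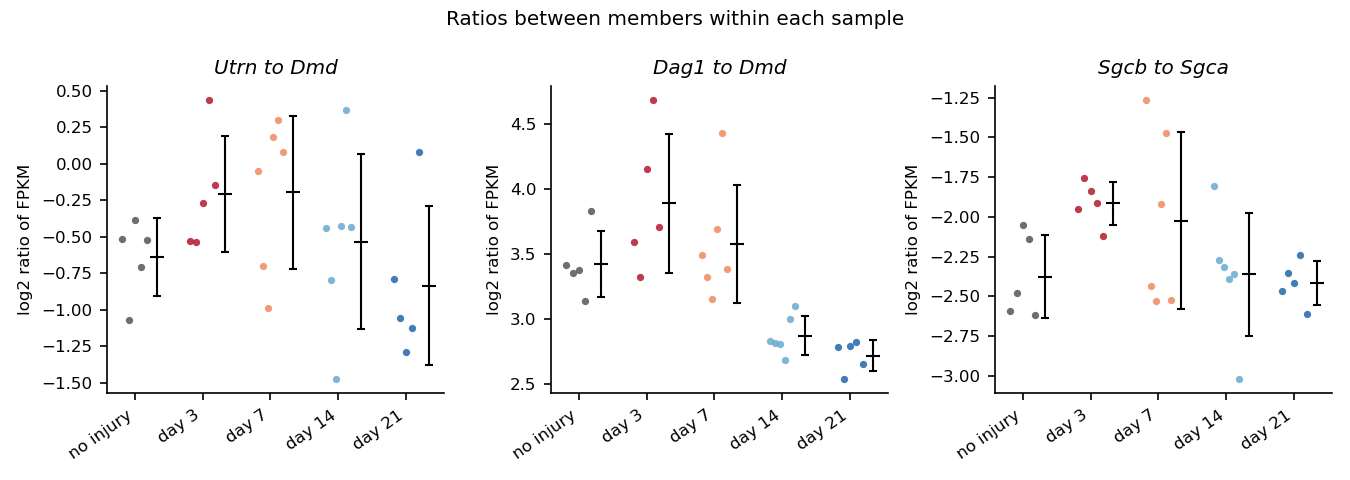
Log2 ratio of FPKM between 2 members in each sample (vertical axes), by group; black bars are means with SD. For Dag1 to Dmd all 6 day 14 and all 5 day 21 samples lie below every sample with no injury.

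The direct comparison of day 21 with day 3 asked which members differed between the first and the last time point. In it 3 of 7 members were called, all higher at day 21, where 25.5% of all genes were called in either direction and 9.23% were called higher. The log2 difference was 0.91 ± 0.22 (SE) for Sgca (limma adjusted p = 0.00370), with all 5 day 21 samples above all day 3 samples. For Dtna it was 0.47 ± 0.16 (limma adjusted p = 0.0309) and for Dmd 0.45 ± 0.16 (limma adjusted p = 0.0407), with 4 of 5 samples above all day 3 samples in each. Sgcb was close to the threshold with 0.40 (limma adjusted p = 0.0508), and Dag1 had the opposite sign, -0.44 (limma adjusted p = 0.0599). Dag1 passed without day 21 replicate 3 (-0.51, limma adjusted p = 0.0389), without day 21 replicate 4 (-0.50, 0.0480) and with quality weights (-0.39, 0.0127). Utrn and Sgcd gave 0.05 and -0.01. With own totals of reads Sgca alone of these 3 was still called (limma adjusted p = 0.0307), and with a common sum none was. The call of Dtna was lost without any 1 of day 3 replicates 3 and 4 and day 21 replicates 1, 3 and 4, with limma adjusted p up to 0.0895. The call of Dmd was lost without any of the same samples or day 21 replicate 2, with limma adjusted p up to 0.138, so that without day 3 replicate 3, day 3 replicate 4 or day 21 replicate 1 only Sgca was called. That of Sgca held in all 10 such fits.

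How the samples were scaled bears on these directions. With the values as deposited the median of all genes hardly moved between groups. Their median-ratio factors were 1.011 in every sample, so a median change near 0 followed from the scale of the values and is not a finding. Scaling by each sample's own total of reads instead moved the median log2 fold change of all genes to 0.40, 0.36, 0.25 and 0.12 (days 3, 7, 14 and 21), and scaling FPKM to a common sum moved it to 0.51, 0.48, 0.29 and 0.12. Relative to the median of all genes, Sgca at day 3 was at -0.96 as deposited, -0.69 with own totals and -0.64 with a common sum, and Sgcb at -0.49, -0.24 and -0.19. Before that median was subtracted, the fold change of Sgca was -0.29 and -0.13 and that of Sgcb turned to 0.16 and 0.32, and neither was called. On day 7 Sgca was at -0.03 and 0.14 under them. Under these 2 scalings Dag1 was the 1 member called at day 3, and higher (0.66 and 0.81, limma adjusted p = 0.0275 and 0.0327, or 0.26 and 0.31 above the median). At day 7 Utrn was called higher under both (0.51 and 0.63, limma adjusted p = 0.0232 and 0.0199), as was Dag1 with a common sum (0.73, limma adjusted p = 0.0487). In the comparison of day 21 with day 3 Dag1 was called lower under both (-0.88 and -1.03). The ratios between members do not change with scaling.

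**Figure D4:**
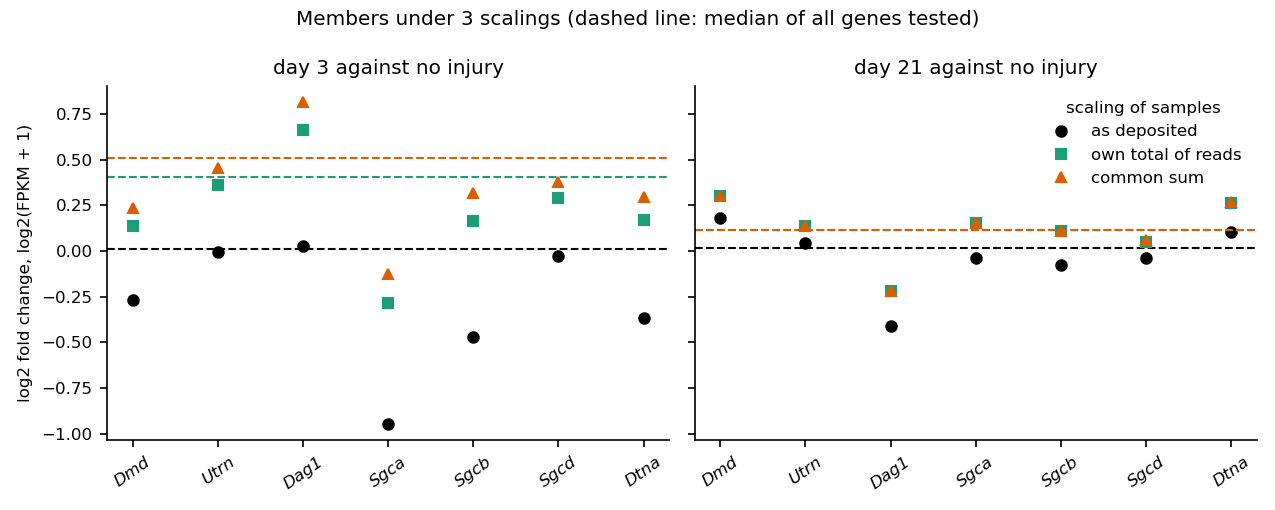
Log2 fold change of each member against no injury (vertical axis) at days 3 and 21 under 3 scalings of the samples; dashed lines mark the median of all genes tested under the same scaling. At day 3 that median lies at 0.01, 0.40 and 0.51, with Sgca lowest under each.

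The members did not vary as 1 block from sample to sample. Over the 27 samples log2(FPKM + 1) of Dmd and Dtna had a Pearson r of 0.87, and 0.83 after group means were removed. Sgcb went with both (0.79 with Dtna, 0.75 with Dmd), and Sgca with Dtna (0.69). Utrn stood at -0.42 to 0.22 with the other 6 members, and Sgcd at -0.42 to 0.30. Dag1 and Dmd had an r of 0.08 over all samples and of 0.59 once group means were removed. These samples share libraries, scaling and cell makeup, so the values are descriptions.

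The genes whose levels ran most like a member's differed between members. For Sgca they were Tnnt3 (fast troponin T), Stac3, Dcaf11, Hrc and Tmem38a, with a Pearson r of 0.92 each over the 27 samples. For Dmd they were its own partner Dtna (0.87), Rbm24 and Neb (nebulin, 0.84 each), Eya4 (0.83) and Stag2 (0.82). Dtna had Tmem64, Mlip, Mypn (myopalladin), Mef2c and Fxr1, with r of 0.87 to 0.88, and Tmem64 (0.91) and Fxr1 (0.88) were also among those of Sgcb, beside Rora, Atl2 and Map2k4. The nearest genes of Dag1 were Rac1, Nkain1, Usp46, Vps35 and Erap1 (0.82 to 0.86) and those of Utrn were Kmt2e, Mau2, Med12, Sned1 and Srrm2 (0.80 to 0.86). Sgcd had no gene above 0.73 (Ube2f), followed by Bub3, Tmem230, Exosc3 and Utp3 (0.63 to 0.66).

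Beyond the 7 members, 47 genes linked to the complex were read from the same fit, and 41 of them passed the filter (Sgcz, Sntg1, Sntg2, Dtnb, Ispd and Large2 did not). At day 3, 6 of 41 were called higher and 16 lower, against 23.4% and 19.8% of all genes. Day 7 had 5 higher and 10 lower, against 15% and 14.4%. Day 14 had 3 and 9, against 9.02% and 11.3%, and day 21 had 0 and 4, against 1.74% and 1.69%. The split turned with scaling. On day 3 it was 16 higher and 3 lower with own totals and 16 higher and 1 lower with a common sum. Of all 14630 genes, 6534 were then called higher and 618 lower with own totals, and 6868 and 322 with a common sum. The corresponding splits were 14 and 2 or 15 and 1 for day 7, 7 and 2 or 5 and 0 for day 14, and 0 and 0 under both for day 21. All genes split into 5348 and 424 or 6304 and 209 for day 7, and 2275 and 288 or 1678 and 107 for day 14. For day 21 they split into 106 and 27 or 42 and 7.

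**Figure D5:**
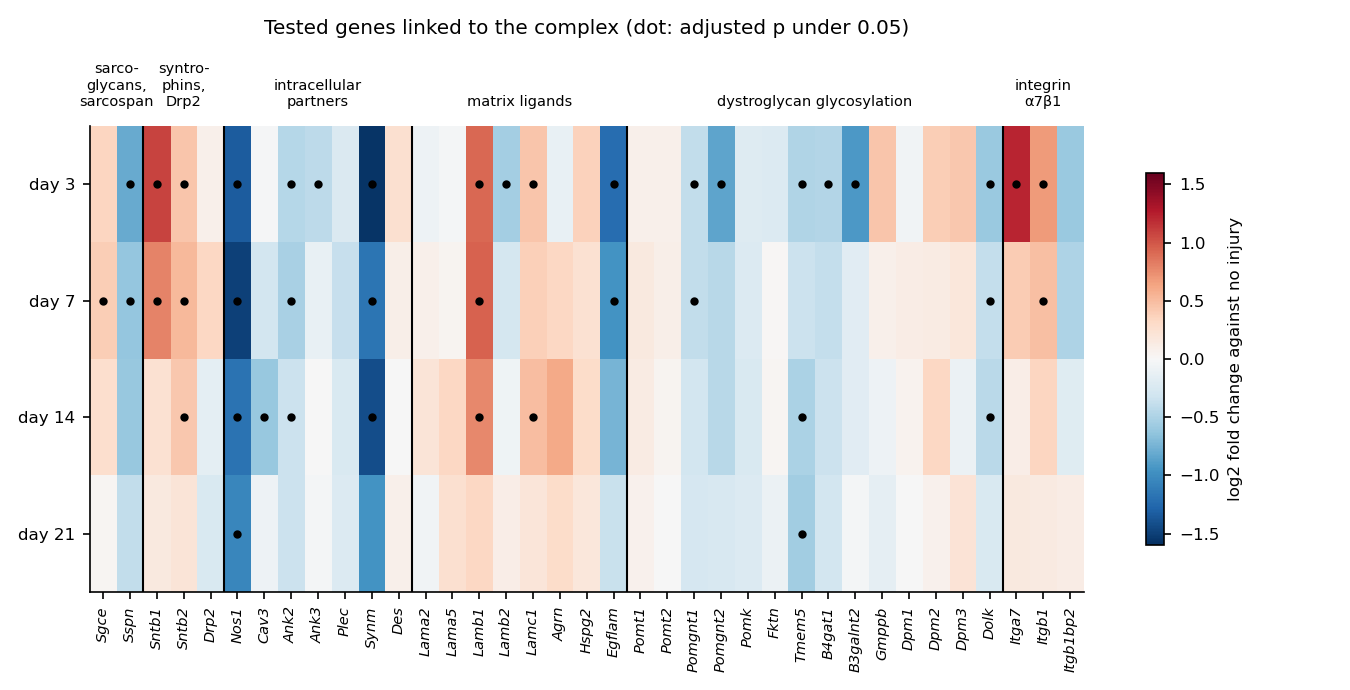
Log2 fold change against no injury (color) of tested linked genes (columns, by list, with 4 of the 41 not shown) at each time point; black dots mark an adjusted p under 0.05. Nos1 carries a dot at all 4 time points, and the lists hold both higher and lower genes. Tmem5 is the table's symbol for Rxylt1.

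Among the partners inside the fiber, Nos1 was the gene called at every time point. It encodes neuronal nitric oxide synthase, which the complex holds at the membrane. Its FPKM with no injury averaged 10.8 ± 1.97 (SD, n = 5, lowest 8.86), against 3.75 ± 1.14, 3.24 ± 0.943, 4.41 ± 1.70 and 4.82 ± 1.75 at days 3, 7, 14 and 21. All 22 injured samples lay below every uninjured sample. Nos1 had log2 fold changes of -1.33, -1.49, -1.18 and -1.05 in the same order (limma adjusted p = 0.0145 at day 21, and at most 0.0435 there with any 1 sample left out). Relative to the median of all genes it was -1.17 and -1.14 at day 3 and -0.97 and -0.96 at day 21 under the other 2 scalings. The day 21 call was lost under both (limma adjusted p = 0.0892 and 0.252), and with a common sum those of days 3 and 14 as well (0.0731 and 0.0700). Synm, the intermediate filament protein synemin that binds dystrobrevin, had log2 fold changes of -1.56, -1.17 and -1.42 at days 3, 7 and 14 (limma adjusted p = 0.00118, 0.0143 and 0.00637), none of which was called with a common sum. At day 21 Synm was at -0.95 with all 5 samples below all controls, and did not pass (limma adjusted p = 0.141).

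Sspn (sarcospan, a membrane protein that binds the sarcoglycans) was lower at day 3, as Sgca was. It fell by 0.81 on the log2 scale (limma adjusted p = 0.00932), with all 5 samples below all controls. Relative to the median of all genes Sspn was at -0.60 and -0.55 under the other scalings, where it was not called. At day 7 Sspn was at -0.61 (limma adjusted p = 0.0487), and with a common sum its log2 fold change turned to 0.06 (limma adjusted p = 0.882), and Sgce, the epsilon subunit used outside striated muscle, rose by 0.39 (limma adjusted p = 0.0498); each lost its call in most fits with 1 sample left out. Of the syntrophins, the adaptors that bind dystrobrevin, Sntb1 was higher at days 3 and 7 (1.08 and 0.79), and Sntb2 at days 3, 7 and 14 (0.45, 0.51 and 0.44). The day 14 call of Sntb2 held in 3 of 11 fits with 1 sample left out. Mean FPKM at day 3 against no injury was 2.32 against 0.543 for Sntb1 and 1.03 against 0.485 for Sntb2. At such levels log2(FPKM + 1) understates the changes, as it does for Sgce.

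Outside the fiber, 8 genes for laminin chains and other matrix ligands of alpha-dystroglycan were tested. Only Lamb1, Lamc1, Lamb2 and Egflam were called against no injury with the values as deposited. The laminin alpha chains on the list were not called. Lamb1 and Lamc1, a beta and a gamma chain of laminins, rose by 0.92 and 0.44 at day 3 and by 0.77 and 0.49 at day 14, and Lamb1 by 0.94 at day 7. Lamb2, the laminin chain of the neuromuscular junction, was lower at day 3 (-0.54, but 0.09 and 0.25 under the other scalings), and Egflam (pikachurin) at days 3 and 7 (-1.22 and -0.96). The calls of Lamc1 and Lamb2 each held in 4 of the 10 day 3 fits with 1 sample left out, and that of Lamc1 at day 14 in 4 of 11. The fibroblast markers also rose, with 4 of 5 called at days 3, 7 and 14 and a summed level of 44.7 to 115 FPKM with no injury against 390 to 799 at day 3, and their part in the laminin values was not tested. Itga7, the integrin subunit that serves as the other laminin receptor of muscle, was at 11.2 ± 1.43 FPKM with no injury and 29.03 ± 10.3 at day 3. It rose by 1.22 ± 0.23 (SE) with a limma adjusted p of 0.000175, with 5 of 5 samples above all controls. Its partner Itgb1 rose by 0.68 at day 3 and 0.48 at day 7, the latter call holding in 5 of 11 fits with 1 sample left out. At day 21 Itga7 was at 0.15 (limma adjusted p = 0.752).

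Of the 16 tested genes that build the laminin-binding sugars of dystroglycan, 7 were called lower at day 3 (19.8% of all genes were), and 4, 4 and 3 at the later times (14.4%, 11.3% and 1.69% of all genes). None was called higher at these times with the values as deposited. The lowest at day 3 were B3galnt2 and Pomgnt2 (-0.92 and -0.85), enzymes of the core sugar. Pomgnt1 was lower at day 7 (-0.39, limma adjusted p = 0.00936), and every injured sample of each time point lay below all controls. Its day 7 call held in 11 of 11 fits with 1 sample left out and in 12 of 14 other settings. Tmem5, the xylosyltransferase Rxylt1, was lower at days 14 and 21 (-0.50 and -0.56, limma adjusted p = 0.0139 and 0.0335). The call of Tmem5 at day 21 held in 2 of 10 fits with 1 sample left out, and none of B3galnt2, Pomgnt2 and Tmem5 was called under the other scalings. Nos1 and Tmem5 were among the 4 linked genes called at day 21. Without 1 sample the count of 4 ran from 1 to 5, beside 1.3% to 3.88% of all genes. It was 0 under both other scalings, where 0.909% and 0.335% of all genes were called.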

How the data were processed

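Poly-A RNA of 27 tibialis anterior samples was sequenced from libraries without strand. Per the submitters' processing notes, the authors aligned reads with HISAT2 2.0.5, counted them per gene with featureCounts 1.5.0-p3 and deposited FPKM with gene lengths. The genes match GENCODE M21 on GRCm38. FPKM times length gave whole reads for 100% of genes above 0 in each sample (within 0.02 reads), and the reads by which each sample was scaled were 0.747 to 1.48 times its total. How this scaling was made is not given in the sources used here. Median-ratio factors, from the median gene ratio of each sample to the mean of all samples, were 1.011 in every sample. The deposited FPKM thus already stood on a median-ratio scale.

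Groups and replicate numbers came from the sample titles. Genes needed 0.5 FPKM or more in 5 or more samples, and log2(FPKM + 1) of the 14630 that passed was fitted with limma 3.58.1 in R 4.3.3 (a mean per group, trended variance, two-sided tests, Benjamini-Hochberg within each comparison, adjusted p under 0.05). Within-sample log2 ratios were compared with exact permutation tests (SciPy 1.17.1), adjusted over 12 tests. Nothing says that samples came from separate animals, so p-values measure the spread between samples, which may be technical. Members, lists and tests were chosen with earlier results of these data known. Named genes were the 7 members, in each linked list up to the 2 highest and 2 lowest called genes per time point, and the 5 genes most correlated with each member. Marker lists covered mature fibers, regenerating muscle, neuromuscular junction, macrophages, neutrophils, fibroblasts, endothelium, smooth muscle, Schwann cells and adipocytes. Alternatives changed the pseudocount, filter, scaling, variance model, weights, blocking and samples, and included voom on the recovered read counts. Scripts were tested on simulated data. Promoter sequences are from RefSeq, and 1 for Dtna was not used here.

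Lists not described elsewhere gave these counts at day 3 against no injury, with genes called higher or lower. All 5 regenerating muscle genes and all 3 neutrophil genes were higher, and 1 of 5 neuromuscular junction genes was higher. Of endothelium 2 of 4 were lower, of smooth muscle and pericyte genes 1 of 5 was higher and 2 were lower, and of Schwann cell (4) and adipocyte genes (3) 0 were called. A few of the linked genes are not reported here by name, and counts over the linked lists include them.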

Additional observations from a re-analysis of the deposited data

Results flagged for a closer look

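Between day 3 and day 21 the change from no injury differed in 3 members, tested directly as the difference between the 2 time points. The difference, as log2 and with day 3 subtracted from day 21, was 0.91 for Sgca, 0.47 for Dtna and 0.45 for Dmd (limma adjusted p = 0.00370, 0.0309 and 0.0407). Of all genes 25.5% were called in this comparison, 9.23% higher. The calls of Dtna and Dmd were lost in 5 and 6 of the 10 fits with 1 sample left out and under both other scalings, and that of Sgca with a common sum. The summed mature fiber markers moved in the same direction, from a median of 38309 FPKM at day 3 to 66998 at day 21, and the macrophage sum fell from 1413 to 45.2, and their part in these differences was not tested. No sample stood apart from its group in any of the 50 sets of member levels or ratios examined, where chance alone would mark about 1 in 20.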

How the results depend on the processing

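Each member, count and ratio was recomputed under the alternatives. The number of members called at day 3 (2 as reported) was 1 with a common sum, 1 with own totals of reads and 4 with sample quality weights, under which 49.1%, 48.9% and 56.4% of all genes were called. At day 7 (1 as reported) it was 0 with no filter, 2 with a common sum, 0 with only the 2 groups fitted and 0 without both day 3 replicate 5 and day 7 replicate 5 (all genes 11.1%, 44.5%, 19.8% and 23.3%). With quality weights it was 1 at day 14 and 1 at day 21, where it was 0 as reported (all genes 29.6% and 16.9%). For day 21 against day 3 (3 as reported) it was 1 with no filter, 1 with a common sum and 5 with quality weights (all genes 10.7%, 34.2% and 44.2%). Linked genes called at day 7 (15 as reported) numbered 9 of 46 with no filter and 9 of 41 without both samples (all genes 11.1% and 23.3%). At day 14 (12) they were 7 with no filter and 5 with a common sum (all genes 7.07% and 12.2%). At day 21 (4) they were 1 with no filter, 0 with a common sum, 0 with own totals and 1 with voom. All genes had 0.792%, 0.335%, 0.909% and 1.93% there.

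Signs turned mostly with scaling. With a common sum the log2 fold changes at day 3 were 0.23 for Dmd, 0.45 for Utrn, 0.32 for Sgcb, 0.38 for Sgcd and 0.30 for Dtna, at day 7 0.40 for Dmd, 0.14 for Sgca, 0.48 for Sgcb, 0.12 for Sgcd and 0.43 for Dtna, at day 14 0.12 for Dag1, 0.27 for Sgca, 0.27 for Sgcb, 0.073 for Sgcd and 0.38 for Dtna, at day 21 0.15 for Sgca, 0.11 for Sgcb and 0.057 for Sgcd, and between day 21 and day 3 -0.32 for Utrn, -0.21 for Sgcb and -0.031 for Dtna. With own totals they were at day 3 0.13 for Dmd, 0.36 for Utrn, 0.16 for Sgcb, 0.29 for Sgcd and 0.17 for Dtna, at day 7 0.28 for Dmd, 0.31 for Sgcb, 0.033 for Sgcd and 0.28 for Dtna, at day 14 0.051 for Dag1, 0.19 for Sgca, 0.20 for Sgcb, 0.035 for Sgcd and 0.31 for Dtna, at day 21 0.15 for Sgca, 0.11 for Sgcb and 0.051 for Sgcd, and between day 21 and day 3 -0.22 for Utrn and -0.054 for Sgcb. These scalings move all genes, by the medians given in the report. Without both samples Dmd at day 7 was 0.044, Sgcd at day 3 was 0.0031 and the Dag1 to Dmd ratio at day 7 was -0.014. With quality weights Dag1 at day 7 was -0.026 and Dtna at day 14 was 0.019, and with voom Sgcd between day 21 and day 3 was 0.021.

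With 1 sample left out, the members called ran from 0 to 1 at day 7 and from 1 to 4 for day 21 against day 3. The share of all genes called ran from 22.2% to 35.7% at day 7 and from 15.8% to 27.9% for day 21 against day 3. Linked genes ran from 8 to 20 at day 7, moved by over 1.5 times by no injury replicate 5 (9) and day 7 replicates 1, 4 and 5 (9, 9 and 8). At day 14 they ran from 6 to 15, moved by no injury replicates 2, 3 and 5 (7, 7 and 6) and day 14 replicates 4 and 5 (7 and 6). At day 21 they ran from 1 to 5 (all genes 1.3% to 3.88%), moved by no injury replicates 1, 2, 4 and 5 and day 21 replicates 1, 2 and 5 (1 each) and day 21 replicate 4 (2). The log2 ratio differences ran from -0.62 to -0.45 for Dag1 to Dmd at day 14 (adjusted p up to 0.0571), from -0.77 to -0.60 at day 21 (0.0635) and from -0.014 to 0.26 at day 7, for Utrn to Dmd at day 14 from -0.074 to 0.29, and for Sgcb to Sgca from -0.095 to 0.15 at day 14 and from -0.10 to 0.041 at day 21. Fold changes that crossed 0 ran from -0.13 to 0.044 for Dmd at day 7, for Utrn from -0.030 to 0.038 (day 3), from -0.017 to 0.087 (day 21) and from -0.012 to 0.077 (day 21 against day 3), for Dag1 from -0.082 to 0.076 (day 3) and from -0.074 to 0.084 (day 7), and from -0.10 to 0.0040 for Sgca at day 21. For Sgcd they ran from -0.11 to 0.045 (day 3), from -0.12 to 0.032 (day 21) and from -0.057 to 0.038 (day 21 against day 3), and from -0.074 to 0.082 for Dtna at day 14. The cause of these shifts was not tested.

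Samples that share a replicate number did not deviate together as a rule (r from -0.52 to 0.57, median -0.0031, 15 of 51 pairs above 0.1, 7 of 27 samples closest to their own number), although all 6 pairs of days 7 and 14 had an r above 0 (0.092 to 0.57). With the replicate block 3 of 7 members were called at day 3 and 4 for day 21 against day 3, beside 44.8% and 27.8% of all genes. Under it Dtna was at -0.37 at day 3 (limma adjusted p = 0.0348) and Sgcb at 0.40 for day 21 against day 3 (0.0295). Sgcd rests on the fewest reads, 58 to 271 per sample.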
